A study of Mus musculus with 70 samples.

Results

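Bone morphogenetic protein (BMP) signaling was followed through 10 genes in the dorsal hippocampus, taken from the gene expression table by symbol: the ligands Bmp2, Bmp3, Bmp4, Bmp6 and Bmp7, the secreted antagonists Nog and Chrd, and the target genes Id1, Id2 and Id3. These are 10 of 24346 genes listed. RNA-seq libraries came from 70 adult male C57BL/6 J mice (12 weeks old in the study's methods), 10 in each of 7 groups, and 5 libraries of each group belonged to each of 2 harvest cohorts. Groups were named by days of initial voluntary wheel running, days of sedentary delay and days of reactivating running: 14-0-0 without a delay, 14-7-0 and 14-14-0 with one, 14-7-2 with a delay and a second bout, and 0-0-2 with the short bout alone. Sedentary mice (0-0-0) were the comparison group. These 6 groups all received the 3-min subthreshold acquisition of object location memory (OLM) 1 h before tissue collection, and home cage mice had neither running nor acquisition.

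BMPs are secreted dimers of the TGF-β family that bind type I and type II serine/threonine kinase receptors, which phosphorylate Smad1, Smad5 and Smad9 to enter the nucleus with Smad4. Noggin (Nog) and chordin (Chrd) bind BMPs outside the cell and keep them from their receptors. Id genes are direct targets of this pathway, and their proteins are helix-loop-helix factors without a DNA-binding region that pair with E proteins and keep those from binding DNA. In the adult dentate gyrus BMP signaling holds neural stem cells in quiescence and limits neurogenesis, noggin opposes it, and running has been reported to lower it.

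Upstream sequence is shown for the ligands Bmp4 and Bmp6, which were called between groups, and for the targets Id2 and Id3, which were not. The promoter sequences used (GRCm38.p6) covered 5 of the 10 genes, Chrd being the fifth, and did not hold Bmp7, also called between groups. Each run holds the 250 bases before the annotated start, 5′ to 3′ on the gene's strand, and capitals mark GGCGCC, a GC-rich element bound by BMP-activated Smads, or GTCTG and its reverse complement CAGAC, a form of the Smad-binding box. Bmp4 lay at chr14:46390670-46390919 on the minus strand, Bmp6 at chr13:38345466-38345715 on the plus strand, Id2 at chr12:25096093-25096342 on the minus strand and Id3 at chr4:136143572-136143821 on the plus strand.
Bmp4: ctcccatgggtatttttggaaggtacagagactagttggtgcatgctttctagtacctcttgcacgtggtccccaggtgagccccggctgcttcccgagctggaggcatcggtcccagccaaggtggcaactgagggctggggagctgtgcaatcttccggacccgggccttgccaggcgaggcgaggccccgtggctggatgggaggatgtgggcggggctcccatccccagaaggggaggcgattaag
Bmp6: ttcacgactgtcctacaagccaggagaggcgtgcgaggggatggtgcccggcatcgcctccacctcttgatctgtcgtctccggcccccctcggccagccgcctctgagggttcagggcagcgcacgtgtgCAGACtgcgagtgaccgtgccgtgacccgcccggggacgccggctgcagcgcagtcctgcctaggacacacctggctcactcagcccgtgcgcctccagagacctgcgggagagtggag
Id2: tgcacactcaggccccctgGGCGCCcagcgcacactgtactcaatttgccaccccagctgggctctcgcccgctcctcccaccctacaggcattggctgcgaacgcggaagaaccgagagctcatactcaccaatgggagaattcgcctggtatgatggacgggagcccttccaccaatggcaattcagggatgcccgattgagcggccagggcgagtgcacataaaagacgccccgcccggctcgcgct
Id3: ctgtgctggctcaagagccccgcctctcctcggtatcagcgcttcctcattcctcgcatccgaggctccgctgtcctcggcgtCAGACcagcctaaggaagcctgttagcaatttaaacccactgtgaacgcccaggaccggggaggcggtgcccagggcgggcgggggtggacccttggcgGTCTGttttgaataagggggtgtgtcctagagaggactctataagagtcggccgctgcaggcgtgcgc
GGCGCC was read once upstream of Id2, starting at -231 from the annotated start, and also once upstream of Chrd, at -203. It occurred on either strand in 9.59% of 32851 promoters of the same length. GTCTG or CAGAC was read 2 times upstream of Id3, at -167 and -68, and once upstream of Bmp6, at -119. That box occurred in 42.2% of all promoters. Neither was read in the Bmp4 window, and a match in these letters is a description only.

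The 10 genes spanned a wide range of levels (plot of the 10 genes by group). On the FPKM scale, which divides by transcript length, Id2 had the highest mean over all 70 libraries at 65.5 and stood above 94.9% of the genes listed. Id3 followed at 23.7, Chrd at 12.8 and Id1 at 8.32. The ligands were lower, with means of 3.19 for Bmp6, 2.01 for Bmp7 and 1.24 for Bmp4, and the antagonist Nog lay among them at 1.89. Bmp3 (0.680) and Bmp2 (0.567) fell below the mean of 1 FPKM needed for the fit across genes, so 8 of the 10 genes were tested there. No gene was at 0 in any library. Spread between libraries was narrowest for Id2, with a coefficient of variation of 14.8%, and widest for Bmp6 at 79.5% and Bmp7 at 71.8%.

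**Figure D1:**
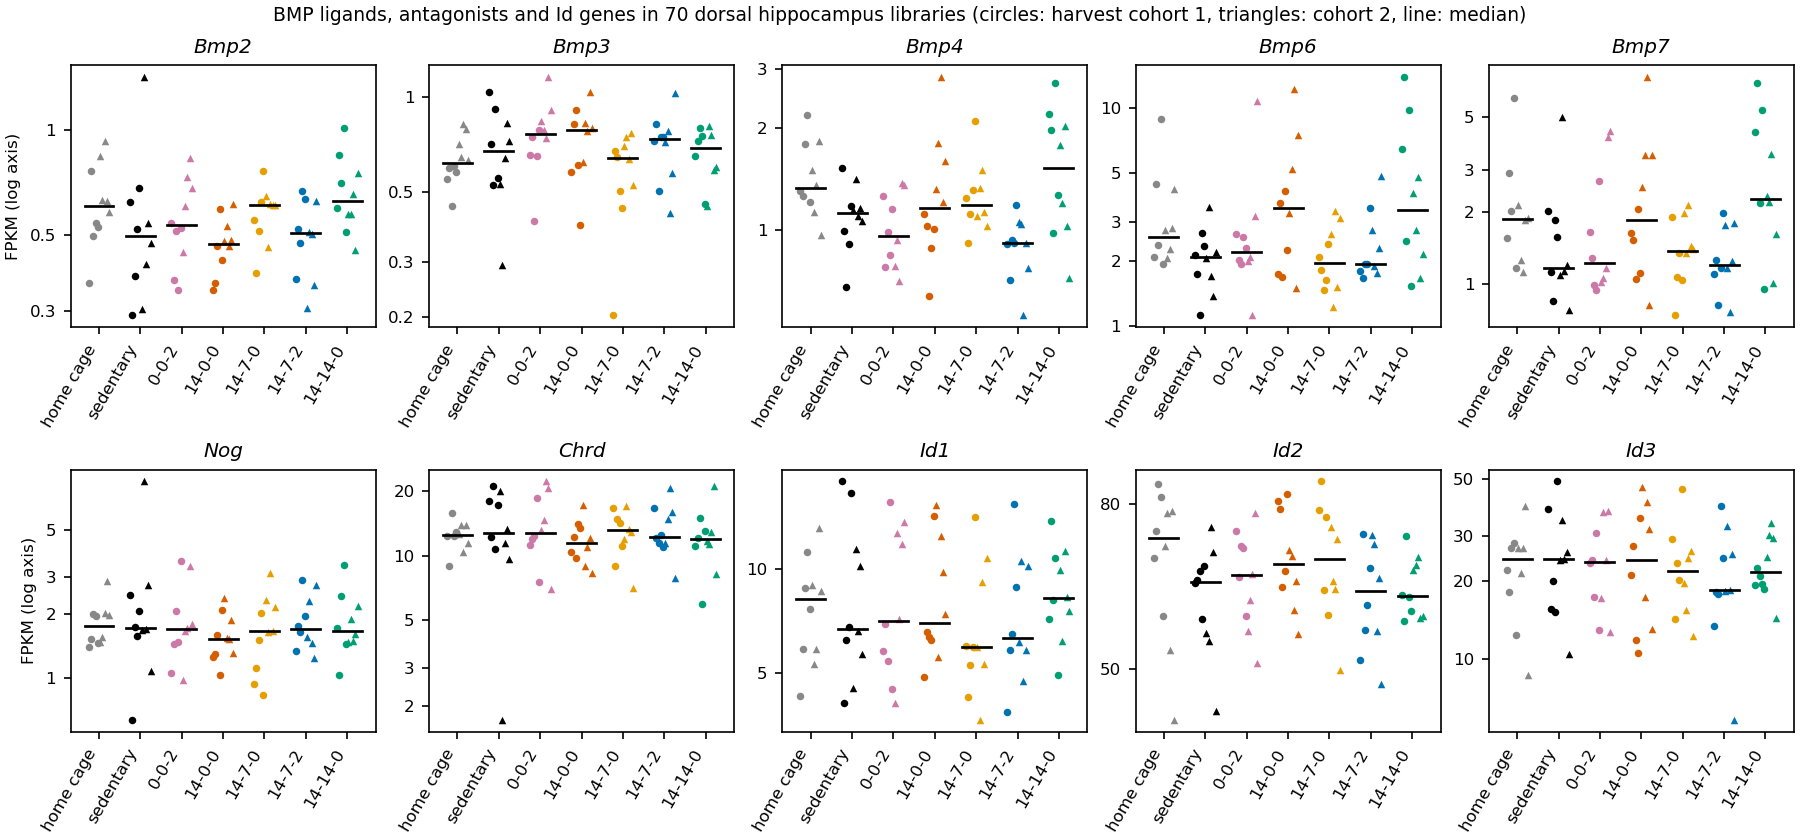
FPKM (log axis) of each of the 10 genes in 70 libraries by group, with circles for harvest cohort 1, triangles for cohort 2 and a line at the group median. Groups overlap for every gene, Bmp6 and Bmp7 have long upper tails in 14-0-0 and 14-14-0, and a single sedentary library is highest for Bmp2 and Nog and lowest for Chrd.

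A few libraries stood apart and touch these genes. Sedentary replicate 6 had the highest Bmp2 (1.42 FPKM) and Nog (8.45 FPKM) and the lowest Chrd (1.73 FPKM) of all 70 libraries, and its group's lowest Bmp3 (0.294 FPKM). Replicate 4 of 14-7-0 listed 10279 genes at 0 FPKM where all others had 6243 to 7199 such genes, and held the highest Bmp4, Id1 and Id3 of its group. Summed FPKM of 12 choroid plexus epithelium genes, a tissue next to the hippocampus, ranged from 24.4 to 22039.8 and differed by group, with medians of 89.1 in sedentary, 2317 in 14-0-0 and 2140 in 14-14-0. Markers of the labelled tissue were present in all 70 libraries, with lowest values of 2.91 FPKM for Prox1 (dentate gyrus granule cells) and 20.6 FPKM for Wfs1 (CA1 pyramidal cells). A gene was called where limma's moderated test on log2(FPKM + 0.1) gave an unadjusted p below 0.05, the threshold of the study. No gene of the 12994 tested passed adjustment when 2 groups were fitted alone with all their libraries and no covariate. Some altered fits of 2 groups left a few genes. Against sedentary, these were 4 in 14-0-0 without sedentary replicate 6 and 1 in home cage without its replicate 3, among others. A moderated F-test over all 7 groups left 29 genes after adjustment, and a joint fit of the 7 groups left 4 for 14-0-0 against sedentary and 2 for 14-7-2 against 14-7-0, with none of the 8 tested BMP and Id genes among these. In bulk tissue, fewer cells of a type and less RNA per cell cannot be told apart.

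Bmp4, a ligand of the BMP2/4 subgroup made by several cell types of the brain and its vessels, had the smallest p of the 8 genes for a difference among the groups. In 14-7-2 libraries the lowest, median and highest values were 0.557, 0.913 and 1.18 FPKM. In 14-7-0 libraries they were 0.914, 1.18 and 2.10 FPKM. The 2 groups overlapped, with the lowest 14-7-0 library near the middle of the 14-7-2 range. Bmp4 was lower in 14-7-2 than in 14-7-0 by a log2 difference of -0.45 ± 0.13 (SE, n = 10 per group, limma p = 0.00269, adjusted p = 0.493), a contrast that asks what 2 days of reactivating running add after the same delay. This was the only call among the 8 genes, beside 5.39% of all genes called. The difference was -0.44 (p = 0.0553) within cohort 1 and -0.46 (p = 0.0207) within cohort 2. Without replicate 4 of 14-7-0 it was -0.38 (p = 0.00352).

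Against sedentary mice (0.674, 1.12 and 1.52 FPKM), Bmp4 in 14-7-2 was also lower, by -0.28 ± 0.13 (p = 0.0438, adjusted p = 0.847), and 9 of its 10 libraries lay below the sedentary median. This was the single call of the 8 genes in that comparison, in which 4.39% of all genes were called. It was not called without sedentary replicate 6 (-0.24, p = 0.0789), and within cohorts it was -0.14 (p = 0.500) and -0.43 (p = 0.0280). Home cage mice had 0.963, 1.33 and 2.19 FPKM, and 9 of 10 exceeded the sedentary median. Bmp4 was higher in home cage than in sedentary mice by 0.35 ± 0.14 (p = 0.0242, adjusted p = 1), and by 0.28 (p = 0.0501) without home cage replicate 3.

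Running for 14 days without delay gave no call for Bmp4, with 0.635, 1.16 and 2.84 FPKM in 14-0-0 and a difference of 0.17 ± 0.19 (p = 0.380). Within cohorts the values were -0.14 (p = 0.522) in cohort 1 and 0.48 (p = 0.0413) in cohort 2, and the test of the difference between cohorts missed the threshold (p = 0.0553). Tested in this way, none of the 8 genes was called in any comparison with sedentary, beside 2.79% of all genes for 14-0-0, 0.362% for 14-7-0, 2.42% for 14-7-2, 2.03% for 14-14-0, 1.48% for 0-0-2 and 0.423% for home cage. In 14-14-0 Bmp4 ranged from 0.721 to 2.73 FPKM with a median of 1.53, and 5 of 10 libraries were above the highest sedentary value. Its difference of 0.41 ± 0.20 missed the threshold (p = 0.0527) and passed it without sedentary replicate 6 (0.44, p = 0.0408). In 0-0-2 (0.706, 0.957 and 1.37 FPKM) and 14-7-0 no difference from sedentary was called, at -0.13 (p = 0.366) and 0.17 (p = 0.228). Ordered by median, Bmp4 ran 14-7-2, 0-0-2, sedentary, 14-0-0, 14-7-0, home cage and 14-14-0, and each neighbouring pair overlapped in range. A moderated F-test over all 7 groups gave p = 0.00224 for Bmp4 (adjusted p = 0.251), p = 0.0313 for Bmp6 and p = 0.0495 for Bmp7. These were 3 of 8 genes, where 7.63% of all genes were called.

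Bmp6, a ligand of the BMP5/6/7 subgroup, was higher in 3 groups than in sedentary mice. Sedentary libraries had a lowest value of 1.13, a median of 2.09 and a highest value of 3.52 FPKM. The 14-0-0 libraries had 1.498, 3.47 and 12.1 FPKM, and 5 of 10 were above every sedentary library while the rest lay within their range. The difference was 0.77 ± 0.32 on the log2 scale (p = 0.0253, adjusted p = 0.454), the single call of the 8 genes where 9.15% of all genes were called. It was 0.37 (p = 0.241) in cohort 1 and 1.17 (p = 0.0391) in cohort 2. Values in 14-14-0 were 1.54, 3.42 and 13.8 FPKM, again with 5 of 10 libraries above the sedentary range, and the difference was 0.91 ± 0.34 (p = 0.0146, adjusted p = 0.974). Cohort 1 gave 1.36 (p = 0.0306) and cohort 2 gave 0.46 (p = 0.183). Bmp6 and Bmp7 were the 2 genes called in 14-14-0, where 4.95% of all genes were called.

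In home cage mice Bmp6 had 1.92, 2.55 and 8.88 FPKM and was 0.57 ± 0.24 higher than in sedentary mice (p = 0.0297, adjusted p = 1). Replicate 3 held the highest value, and without it the difference was 0.40 (p = 0.0534). With Bmp4, this made 2 of 8 genes called for home cage, where 2.30% of all genes were called. Neither delay group with 7 sedentary days, nor 0-0-2, was called for Bmp6: 14-7-0 differed by 0.018 (p = 0.929), 14-7-2 by 0.19 (p = 0.349) and 0-0-2 by 0.32 (p = 0.258). None of the 8 genes was called in 14-7-0, where 3.26% of all genes were called, or in 0-0-2, where 2.37% were. Set directly against 14-0-0, Bmp6 in 14-7-0 (1.23, 1.94 and 3.36 FPKM) was lower by -0.75 ± 0.32 (p = 0.0295, adjusted p = 0.782), 1 of 8 genes called beside 5.63% of all genes, and by -0.55 (p = 0.0592) without 14-0-0 replicate 7.

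Bmp7, the close paralog of Bmp6, was called in 14-14-0. Its 14-14-0 libraries had 0.950, 2.27 and 6.97 FPKM, and sedentary libraries had 0.781, 1.17 and 4.996 FPKM. The groups overlapped, and 2 of 10 libraries of 14-14-0 exceeded sedentary replicate 6, the highest of its group. The difference was 0.78 ± 0.35 (p = 0.0384, adjusted p = 0.974). It was 0.98 (p = 0.00619) without sedentary replicate 6 and 0.62 (p = 0.0800) without 14-14-0 replicate 1. Without sedentary replicate 6, Bmp7 also passed the threshold in 14-0-0 (0.68, p = 0.0454) and home cage (0.60, p = 0.0272), where all libraries gave 0.48 (p = 0.184) and 0.41 (p = 0.189).

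**Figure D2:**
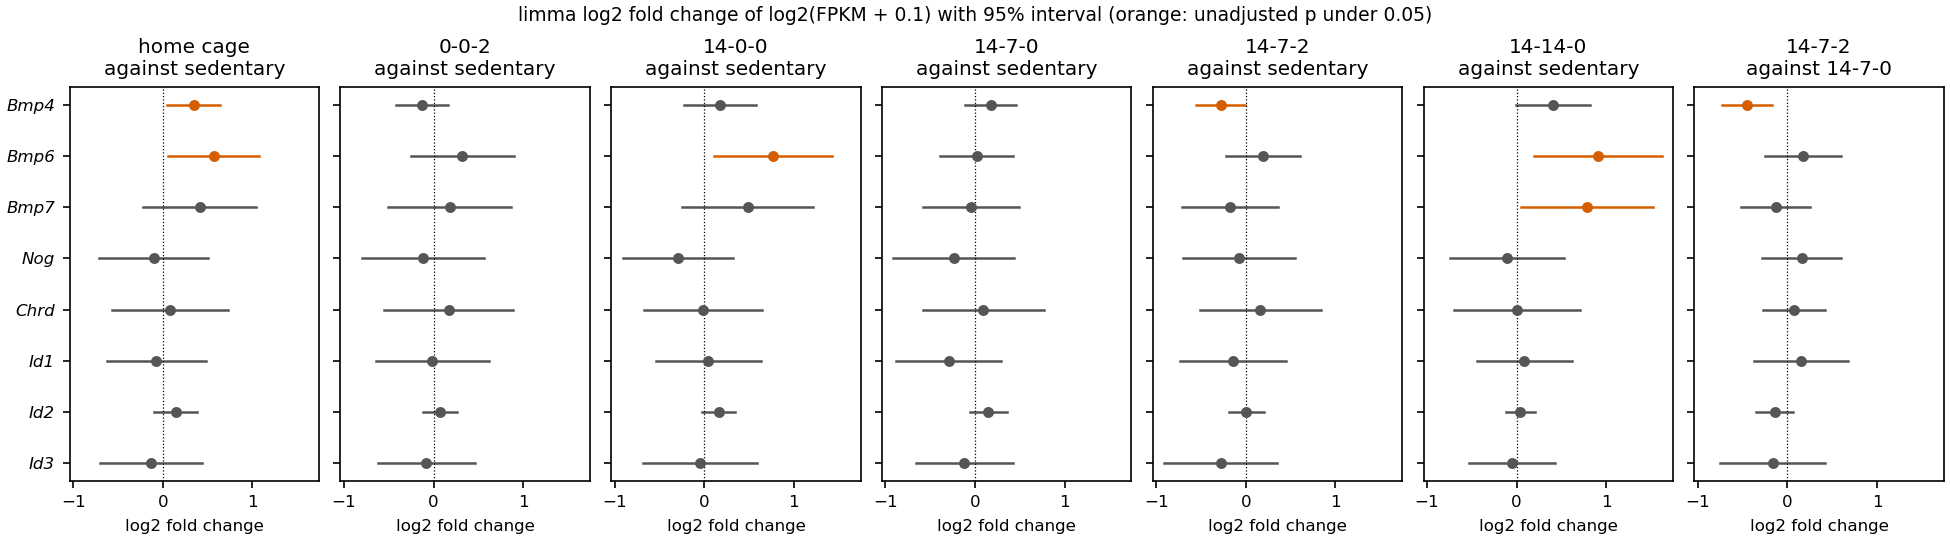
Log2 fold change with its 95% interval (limma, log2(FPKM + 0.1), 10 libraries per group) of the 8 genes tested, for 6 comparisons with sedentary and for 14-7-2 against 14-7-0. Orange marks an unadjusted p under 0.05, which appears for Bmp4, Bmp6 and Bmp7 alone, and the intervals of Nog, Chrd, Id1, Id2 and Id3 cross 0 in every panel.

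The group differences of Bmp6 and Bmp7 moved with choroid plexus markers. Ttr, the transthyretin gene and the most abundant of that list, ranged from 15.5 to 21244 FPKM, and Folr1, Kcnj13, Kcne2, Calml4 and Tmem72 were at 0 in at least one library. The mean log2 score of the list was above 0 in 23 of 70 libraries: 6 of 14-0-0, 5 of 14-14-0, 4 of 14-7-2, 3 of home cage, 2 each of 14-7-0 and 0-0-2, and 1 of sedentary. In those 23 libraries Bmp6 had a median of 4.25 FPKM, against 2.01 FPKM in the other 47. Bmp6 rose with the score within the 23 libraries (r = 0.916, permutation p = 1e-05; rho = 0.959, p = 1e-05; r = 0.911 without the 2 farthest libraries). Within the 47 libraries r was 0.469 (p = 0.000850; rho = 0.469, p = 0.00103; 0.524 without the 2 farthest). For Bmp7, r was 0.807 (p = 1e-05; rho = 0.853, p = 1e-05; 0.769 without 2) and 0.277 (p = 0.0600; rho = 0.238, p = 0.109; 0.328 without 2) in the same sets. Bmp4 followed the score in the 23 libraries (r = 0.677, p = 0.000410; rho = 0.721, p = 0.000130; 0.620 without 2) and not in the 47 (r = -0.033, p = 0.822; rho = -0.041, p = 0.782; 0.040 without 2). The 12 relations of this family had adjusted p-values between 2.4e-05 and 0.822, and 1e-05 is the smallest p that 100000 permutations give.

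**Figure D3:**
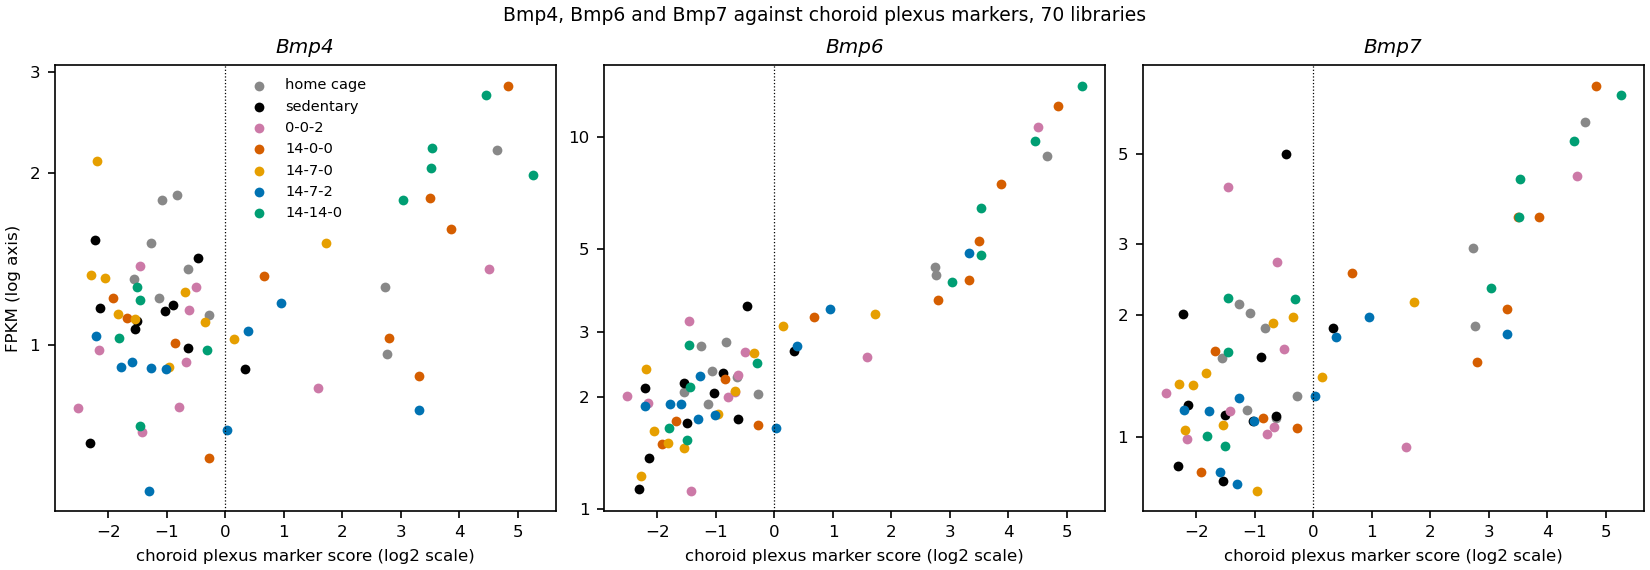
FPKM (log axis) of Bmp4, Bmp6 and Bmp7 against the choroid plexus marker score (mean log2 deviation of 12 genes) in 70 libraries colored by group, with a dotted line at a score of 0. Bmp6 and Bmp7 climb with the score to the right of the line, where 23 libraries lie, and Bmp4 is flat to its left.

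With this score as a covariate Bmp6 was no longer called in any group: the difference was -0.19 (p = 0.294) in 14-0-0, 0.017 (p = 0.923) in 14-14-0 and 0.096 (p = 0.509) in home cage. Calls over all genes also fell, to 5.20%, 1.10% and 0.877% in the same groups. Score and group moved together, with mean scores of -1.24 in sedentary, 1.43 in 14-0-0 and 1.33 in 14-14-0. Bmp7 in 14-14-0 was 0.014 (p = 0.961). Leaving out the 23 libraries gave -0.12 (p = 0.612), 0.093 (p = 0.678) and 0.24 (p = 0.186) for Bmp6 and 0.11 (p = 0.775) for Bmp7. This removed 6 libraries of 14-0-0, 5 of 14-14-0, 3 of home cage and 1 of sedentary from these fits. The shares of all genes called were then 5.74% in 14-0-0, 0.808% in 14-14-0 and 1.24% in home cage. The decrease of Bmp4 in 14-7-2 relative to 14-7-0 was as large, at -0.44 (p = 0.00435) with the score and -0.48 (p = 0.0101) without the 23 libraries. Meningeal and fibroblast genes moved in the same groups, with median summed FPKM of 36.2 in sedentary, 79.5 in 14-0-0 and 81.8 in 14-14-0. With their score as a covariate Bmp6 was not called in 14-0-0 (0.28, p = 0.390), 14-14-0 (0.31, p = 0.358) or home cage (0.26, p = 0.328), and Bmp4 in 14-7-2 against 14-7-0 stayed at -0.45 (p = 0.00345). Beside these, 5.27%, 0.785%, 1.02% and 5.28% of all genes were called in the same order.

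Endothelial genes moved with Bmp4. Their summed FPKM had medians of 107 in 14-7-2, 115 in 14-7-0, 114 in sedentary and 125 in home cage, and over the libraries Bmp4 followed their score with r = 0.468 (p = 0.000110, adjusted p = 0.000688; rho = 0.484, p = 7e-05; 0.447 without the 2 farthest libraries, and 0.475 and 0.461 within cohorts). With this score as a covariate Bmp4 in 14-7-2 was -0.41 (p = 0.0128) against 14-7-0 and still called, and was no longer called against sedentary (-0.20, p = 0.125). The shares of all genes called in these 2 fits were 3.28% and 3.10%. In home cage Bmp4 was 0.11 (p = 0.480) with the endothelial score and 0.21 (p = 0.212) with the meningeal score.

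Bmp2 and Bmp3, the ligands of lowest level, showed no called difference from sedentary. Bmp2 lay between 0.292 and 1.42 FPKM over all libraries, and its largest difference was 0.29 on the log2 scale in 14-14-0 (permutation p = 0.168, adjusted over 6 comparisons 0.769). Bmp3, an atypical ligand that opposes other BMPs, lay between 0.203 and 1.15 FPKM. Its largest difference was 0.18 in 0-0-2 (permutation p = 0.320, adjusted p = 0.950).

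The antagonists showed no called difference in any comparison. Nog had medians between 1.53 FPKM in 14-0-0 and 1.75 FPKM in home cage, and its differences from sedentary ran from -0.30 (95% interval -0.91 to 0.32) in 14-0-0 to -0.075 (-0.70 to 0.55) in 14-7-2. All 6 were negative with sedentary replicate 6 in the fit. Without it they ran from -0.067 in 14-0-0 to 0.16 in 14-7-2. Chrd had medians between 11.5 FPKM in 14-0-0 and 13.1 FPKM in 14-7-0. Its differences were within -0.016 and 0.17 of sedentary with all libraries and between -0.31 (14-0-0, p = 0.0614) and -0.13 (0-0-2, p = 0.546) without sedentary replicate 6. Exons of Chrd overlap those of Thpo on the opposite strand, the count was not stated to use strand, and Thpo (0.406 to 6.28 FPKM) followed Chrd over the libraries (rho = 0.704, n = 70), so reads of the pair cannot be told apart. Bmp6 overlaps Txndc5 in the same way, at 19.2 to 38.5 FPKM (rho = 0.295). Bmp4 overlaps Gm15217, which was at 0 in 54 libraries.

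None of the Id targets was called in a comparison between groups. Id1 had medians from 5.94 FPKM in 14-7-0 to 8.23 FPKM in 14-14-0, and its differences from sedentary ran from -0.30 (95% interval -0.88 to 0.29) to 0.086 (-0.45 to 0.62). Id3 medians ran from 18.5 FPKM in 14-7-2 to 24.5 FPKM in home cage, with differences from -0.28 (-0.91 to 0.35) in 14-7-2 to -0.047 (-0.53 to 0.43) in 14-14-0. Id3 varied widely within each group, from 5.78 to 39.3 FPKM in 14-7-2 and from 10.4 to 49.0 FPKM in sedentary mice. Id2, the most even of the 10 genes, had medians from 61.5 FPKM in 14-14-0 to 72.6 FPKM in home cage. Its differences lay between 0.0060 (-0.19 to 0.21) in 14-7-2 and 0.16 (-0.028 to 0.35, p = 0.0917) in 14-0-0. Id2 was called between harvest cohorts, at -0.11 ± 0.050 in cohort 2 relative to cohort 1 (p = 0.0290, adjusted p = 0.342), the single call of 8 genes where 11.9% of all genes were called. Once the choroid plexus score was a covariate, Id2 in 14-0-0 reached 0.27 (p = 0.0213).

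Any running history, taken as the mean of the 5 exercise groups against sedentary, called none of the 8 genes, beside 8.33% of all genes. The largest difference was that of Bmp6 at 0.44 ± 0.25 (p = 0.0861), which was 0.53 (p = 0.0491) without sedentary replicate 6. The ligands Bmp4 and Bmp7 differed by 0.068 and 0.25, the antagonists Nog and Chrd by -0.17 and 0.082, and the targets Id1, Id2 and Id3 by -0.066, 0.086 and -0.12. The median over the 8 genes was 0.075. Of these genes, 14-7-2 against 0-0-2, which differ in earlier running, called none, beside 2.43% of all genes.

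Other genes of the pathway were counted from 7 lists with 63 symbols, 39 of them tested. In 14-0-0, 4 were higher and 3 lower of the 39, beside 9.15% of all genes called in either direction. In 14-14-0, 4 were higher and none lower, beside 4.95%. The 3 lower in 14-0-0, named after their values were seen, were the target Hes1 (-0.33 ± 0.14, p = 0.0240), the signal transducer Smad1 (-0.14 ± 0.060, p = 0.0337) and Smurf1, a ubiquitin ligase for Smads (-0.14 ± 0.062, p = 0.0367). Sostdc1, an antagonist of BMP and Wnt signaling, was higher by 1.84 ± 0.51 in 14-0-0 (p = 0.00178, adjusted p = 0.279) and 1.85 ± 0.64 in 14-14-0 (p = 0.00895), the 2 groups with the highest medians of choroid plexus markers, whose part in it was not tested. Twsg1, which binds BMPs together with chordin, was higher by 0.23 ± 0.077 (p = 0.00780) and 0.20 ± 0.080 (p = 0.0195) in the same groups. Tgfbr3, the coreceptor betaglycan, was higher in 14-14-0 by 0.65 ± 0.19 (p = 0.00241). Bambi, a pseudoreceptor without a kinase, was higher in 14-0-0 by 0.42 ± 0.12 (p = 0.00276) and in 14-7-2 by 0.38 ± 0.16 (p = 0.0227), its single call among the 39. Grem1, a gremlin antagonist, was the one call in 14-7-0 (0.61 ± 0.25, p = 0.0260), none was called in 0-0-2, and home cage had 1 higher (Tgfbr3, 0.33 ± 0.15, p = 0.0425) and 1 lower (Smurf1, -0.14 ± 0.053, p = 0.0167). The shares of all genes called were 3.26% in 14-7-0, 4.39% in 14-7-2, 2.37% in 0-0-2 and 2.30% in home cage. None of the 6 receptors tested and none of the 3 E proteins was called in any of these 6 comparisons.

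From library to library, the 10 genes also varied together within groups. After group and cohort means were removed, 21 of 45 pairs of genes had a Pearson's r with an adjusted permutation p under 0.05 (n = 70). Bmp6 and Bmp7 were closest, with r = 0.828 (p = 1e-05, adjusted p = 9e-05; rho = 0.796, p = 1e-05), 0.801 without the 2 libraries farthest out, and 0.843 and 0.816 within cohorts 1 and 2. The relation was present both in the 23 libraries high in choroid plexus markers (r = 0.917) and in the other 47 (r = 0.662). Bmp4 and Bmp7 had r = 0.663 (p = 1e-05, adjusted p = 9e-05; rho = 0.673, p = 1e-05; 0.640 without 2 libraries), and Bmp4 and Bmp6 had r = 0.607 (p = 1e-05, adjusted p = 9e-05; rho = 0.579, p = 1e-05; 0.560 without 2). In the 47 libraries these were 0.452 and 0.438.

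Among the targets, Id2 and Id3 had r = 0.543 (p = 2e-05, adjusted p = 0.000150; rho = 0.455, p = 0.000110; 0.462 without 2 libraries), at 0.315 in cohort 1 and 0.676 in cohort 2. Id1 and Id3 had r = 0.500 (p = 4e-05, adjusted p = 0.000200; rho = 0.565, p = 1e-05; 0.465 without 2), at 0.766 and 0.256. Id1 also followed Bmp4 (r = 0.414, p = 0.000290, adjusted p = 0.00100; rho = 0.386, p = 0.00103; 0.421 without 2), and so did Id3 (r = 0.404, p = 0.000440, adjusted p = 0.00141; rho = 0.434, p = 0.000160; 0.408 without 2). Both held a similar size within cohorts, between 0.369 and 0.452. The antagonists Nog and Chrd ran opposite each other with r = -0.343 (p = 0.00522, adjusted p = 0.0124; rho = -0.102, p = 0.401), which was -0.164 without the 2 farthest libraries and -0.120 without sedentary replicate 6, so the relation rested on that library. Bmp2 and Chrd had r = -0.528 (p = 3e-05, adjusted p = 0.000193, rho = -0.306, p = 0.0101), which was -0.347 without sedentary replicate 6 and -0.270 without the 2 farthest libraries. Chrd and Id3, at r = 0.299 (p = 0.0112, adjusted p = 0.0240, rho = 0.352, p = 0.00292), rose to 0.458 without sedentary replicate 6 and 0.478 without the 2 farthest.

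**Figure D4:**
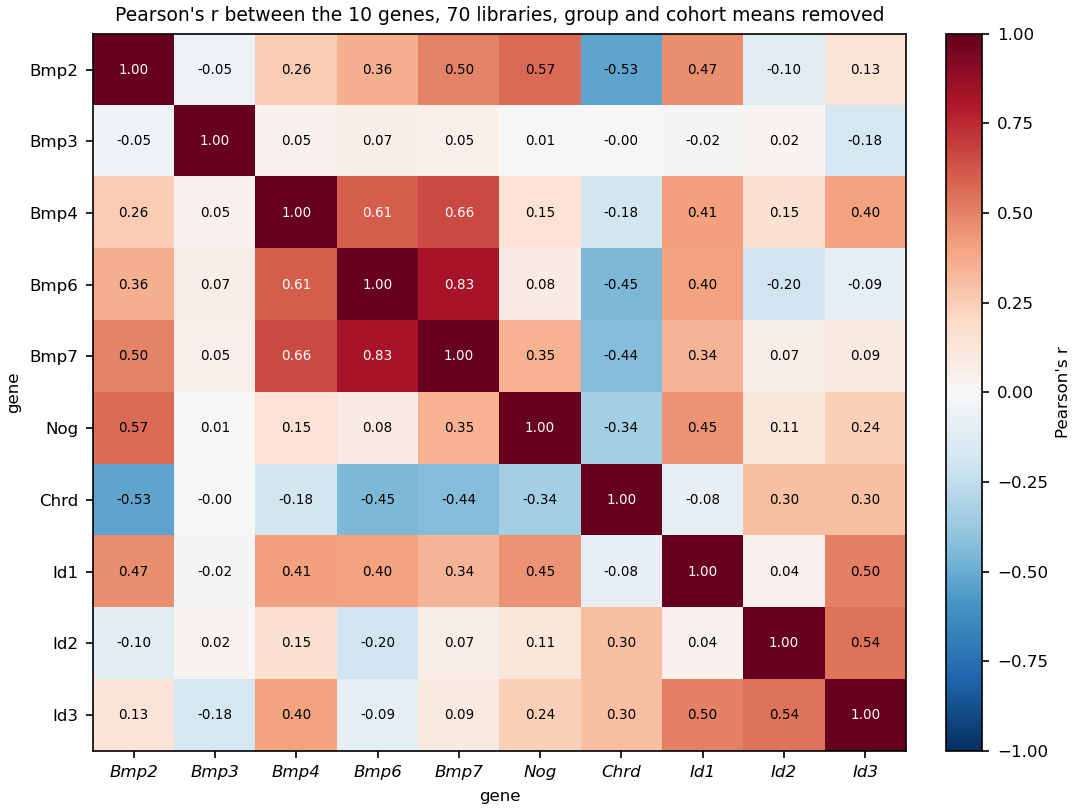
Pearson's r between each pair of the 10 genes over 70 libraries of log2(FPKM + 0.1) after removal of group and cohort means, with color and printed value giving r. Bmp4, Bmp6 and Bmp7 form a positive block up to 0.83, Id3 pairs with Id1 and Id2, and Chrd runs negative with Bmp2, Bmp6 and Bmp7, its value with Bmp2 being -0.53 with all libraries and -0.35 without sedentary replicate 6.

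Each gene was then set beside marker lists of brain cell types, for 150 relations of which 57 had an adjusted p under 0.05. Bmp7 followed the meningeal and fibroblast list with r = 0.736 (p = 1e-05, adjusted p = 9.38e-05; rho = 0.757, p = 1e-05; 0.699 without the 2 farthest libraries). Bmp6 had r = 0.664 with it (p = 1e-05, adjusted p = 9.38e-05; rho = 0.667, p = 1e-05; 0.663 without 2) and Bmp4 had r = 0.523 (p = 1e-05, adjusted p = 9.38e-05; rho = 0.490, p = 3e-05; 0.489 without 2). The part of meningeal cells in these levels was not tested. Nog followed the inhibitory neuron list (r = 0.615, p = 1e-05, adjusted p = 9.38e-05; rho = 0.563, p = 1e-05; 0.594 without 2), at 0.731 and 0.526 within cohorts. Chrd followed the CA1 pyramidal cell list (r = 0.712, p = 1e-05, adjusted p = 9.38e-05; rho = 0.676, p = 1e-05; 0.654 without 2), at 0.638 and 0.734.

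Id3 followed microglial genes (r = 0.776, p = 1e-05, adjusted p = 9.38e-05; rho = 0.706, p = 1e-05; 0.744 without 2) and immediate early genes (r = 0.758, p = 1e-05, adjusted p = 9.38e-05; rho = 0.777, p = 1e-05; 0.778 without 2). Within cohorts the first was 0.604 and 0.875, and the second 0.725 and 0.794. Id2 followed the neocortex list (r = 0.627, p = 1e-05, adjusted p = 9.38e-05; rho = 0.615, p = 1e-05; 0.632 without 2), at 0.251 and 0.816. The adult neurogenesis list, which holds Dcx, Eomes and Sox2 among 8 genes, was related to Chrd (r = -0.434, p = 0.000500, adjusted p = 0.00234; rho = -0.399, p = 0.000710; -0.429 without 2) and to Nog (r = 0.353, p = 0.00315, adjusted p = 0.0105; rho = 0.144, p = 0.238; 0.216 without 2, and 0.268 without sedentary replicate 6). The other 8 genes had r between -0.094 and 0.24 with it, with adjusted p-values of 0.108 or more.

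**Figure D5:**
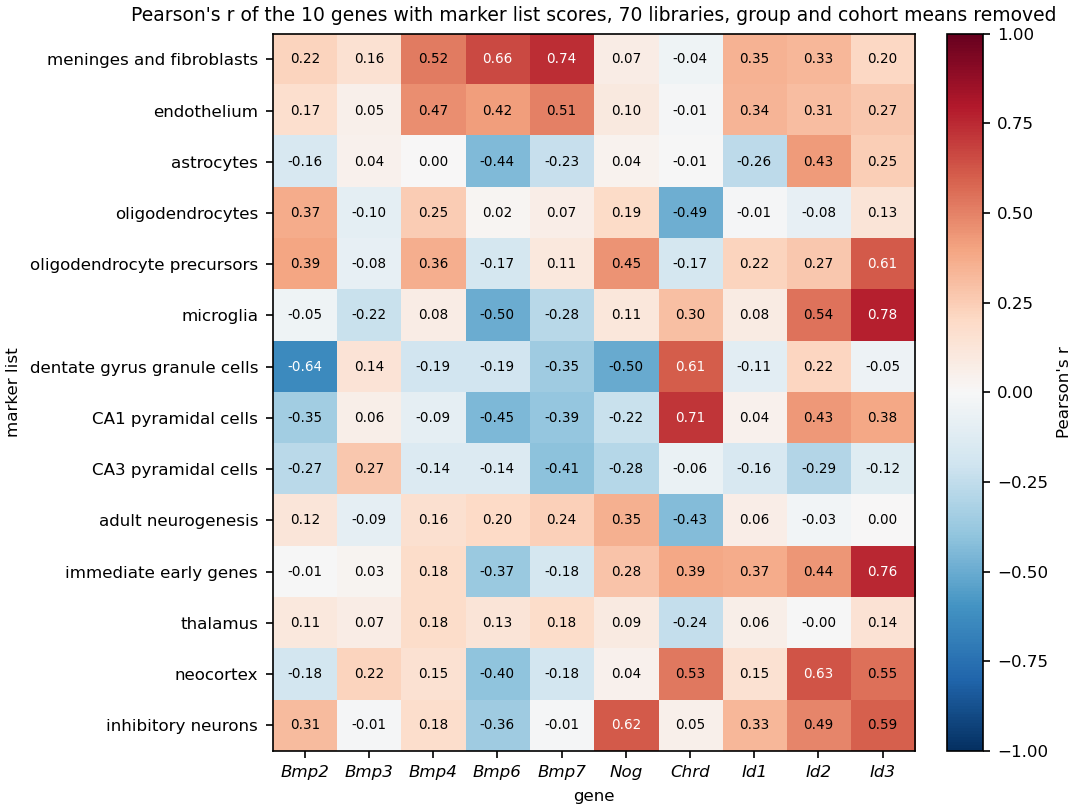
Pearson's r of each of the 10 genes with 14 marker list scores over 70 libraries after removal of group and cohort means, the choroid plexus list being left out because libraries split on it. Cells above 0.6 in size include Id3 with microglia (0.78) and immediate early genes (0.76), Bmp7 (0.74) and Bmp6 (0.66) with meninges, Chrd with CA1 (0.71), Bmp2 with dentate granule cells (-0.64), Id2 with neocortex (0.63) and Nog with inhibitory neurons (0.62). The Bmp2 value was -0.40 without the 2 farthest libraries and -0.47 without sedentary replicate 6.

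A library property also moved with some of these genes. The mean log2 level of 2118 genes with short transcripts (under 1000 bases) minus that of 2292 genes with long ones (over 4000 bases) varied between libraries from -0.23 to 0.47. It was related to Nog (r = 0.498, p = 4e-05, adjusted p = 0.000150; rho = 0.401, p = 0.000570; 0.372 without 2 libraries), Id1 (r = 0.490, p = 3e-05, adjusted p = 0.000150; rho = 0.455, p = 0.000150; 0.443 without 2) and Id3 (r = 0.379, p = 0.00118, adjusted p = 0.00295; rho = 0.373, p = 0.00178; 0.306 without 2). Bmp2 was also related to it (r = 0.481, p = 4e-05, adjusted p = 0.000150; rho = 0.322, p = 0.00678; 0.296 without 2, and 0.350 without sedentary replicate 6). Chrd (r = -0.337, p = 0.00592, adjusted p = 0.0111, rho = -0.167, p = 0.167, and r = -0.167 without 2) and Bmp3 (r = -0.286, p = 0.0166, adjusted p = 0.0277, rho = -0.130, p = 0.282, and r = -0.128 without 2) ran opposite to it, and fell to -0.134 and -0.178 without sedentary replicate 6, so both rested on that library. The other 4 genes, Bmp4, Bmp6, Bmp7 and Id2, had r between 0.10 and 0.20 and were not related at this threshold. With this contrast held fixed, r was 0.389 for Id1 and Id3, 0.546 for Id2 and Id3, and 0.742 and 0.765 for Id3 with microglial and immediate early genes.

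Genes whose levels over the 70 libraries ranked most like each gene's were named as a description. For Bmp6 they were Col8a2 (rho = 0.864), Sulf1 (0.856) and Slc13a4 (0.852), and for Bmp7 Coch (0.844), Col1a2 (0.838) and Slc13a4 (0.816). For Bmp4 they were Fam129b (0.765), Mmp15 (0.749) and Serpinh1 (0.744). Sox2 (0.681) and Dleu7 (0.676) were among those most like Nog, and Chrd was closest to Fam193b (0.829), Sfswap (0.826) and Celf5 (0.810). Id1 was closest to Coa6 (0.830), 2310039H08Rik (0.820) and Txndc15 (0.799), Id2 to Cav2 (0.676), Rps28 (0.669) and Ryk (0.663), and Id3 to Rnaseh2c (0.896), Uqcr11 (0.893) and Dpm3 (0.893). The ligands of low level had weaker partners, Foxf2 (0.609), Pbx3 (0.602) and Tmbim4 (0.596) for Bmp2 and Etl4 (0.505), Maf (0.486) and Pcdh7 (0.468) for Bmp3.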

How the data were processed

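Dorsal hippocampus RNA was sequenced from 70 mice. The authors aligned 50 bp single reads with ELAND v2e and Bowtie, kept unique alignments with at most 2 mismatches and deposited FPKM per gene from the Tuxedo protocol. The submitters' processing notes also name Cuffnorm and mm10, and whether FPKM were further scaled between libraries is not given in the sources used here. Read counts per gene were not used here, and intervals for counting error could not be given. The study lists total reads per sequencing sample, with a sample far below the others. Its sequencing codes were not matched to the libraries, so the depth of each library was not known here. Replicates were separate mice, grouped by the labels.

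Of 24346 genes, 12994 averaged 1 FPKM or more and were tested as log2(FPKM + 0.1) with limma 3.58.1 (R 4.3.3, two-sided, trend) on the 20 libraries of each comparison, without covariates. Fold changes on this scale understate those of low genes. Calls were made at an unadjusted p under 0.05, with Benjamini-Hochberg values over all genes. The test, not the calls, was tried on simulated independent normal values without outlier libraries or shifts in tissue content. Bmp2 and Bmp3 were tested by 100000 permutations. A marker score is the mean over a list of log2(FPKM + 0.1) minus each gene's mean. Relations used residuals from group and cohort means, except those within libraries split by choroid plexus score, which used log2 values. The 6 comparisons with sedentary share its libraries.

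The genes and lists were chosen with earlier results of these data known. Named beside the 10 genes were pathway genes called against sedentary, at most the 3 of smallest p per comparison, the 3 genes of highest rho per gene, of which 1 is not reported here, and list markers. Txndc5, Thpo and Gm15217 were named after their exon overlap (GENCODE vM21) was seen. Alternatives covered the pseudocount, minimum mean, scaling, quantile normalization, joint fit, cohort, replicate block, marker scores, Cyber-T, each cohort, a stricter p and single libraries. Chosen after seeing the data were the short-transcript contrast, the split by choroid plexus score and the omission of its 23 libraries, the omission of 14-0-0 replicate 7, 14-14-0 replicate 1, home cage replicate 3 and 0-0-2 replicate 9, and for relations that of sedentary replicate 6. Figures used matplotlib 3.10.9 under Python 3.11.15.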

Additional observations from a re-analysis of the deposited data

Results flagged for a closer look

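In 11 cases the highest library of a group lay far from the other 9, with a gap of more than 0.466 of the group's range. With 70 combinations of gene and group examined, chance alone flags about 1 in 20 where values are normally distributed. FPKM were taken unlogged and every flagged library was the highest of its group, so that rate may be too low here. Sedentary replicate 6 was such a library for Bmp2 (1.42 FPKM, next 0.680), Bmp7 (4.996, next 2.02) and Nog (8.45, next 2.74). Replicate 7 of 14-0-0 was so for Bmp4 (2.84, next 1.81) and Bmp7 (7.36, next 3.49). Home cage replicate 3 was so for Bmp6 (8.88, next 4.48) and Bmp7 (5.996, next 2.93), and home cage replicate 8 for Nog (2.86, next 2.03). Replicate 9 of 0-0-2 held 10.7 FPKM of Bmp6, next to 3.21. Replicate 4 of 14-7-0 held 2.10 FPKM of Bmp4, next to 1.51, and 45.8 FPKM of Id3, next to 29.1. Chrd, Id1, Id2 and Bmp3 had no such library.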

How the results depend on the processing

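Of the calls, Bmp4 in 14-7-2 against 14-7-0 was kept under 14 of 15 alternatives (adjusted p from 0.464 to 1), Bmp4 in 14-7-2 against sedentary under 9 of 15 and in home cage under 9 of 16. Bmp6 was kept under 11 of 16 in 14-0-0, 11 of 16 in 14-14-0, 10 of 16 in 14-7-0 against 14-0-0 and 8 of 16 in home cage, and Bmp7 in 14-14-0 under 10 of 16. Bmp6 changed sign when the choroid plexus score entered the fit, to -0.19 in 14-0-0 and 0.097 in 14-7-0 against 14-0-0, and without the 23 libraries of score above 0, to -0.12 and 0.017. The relation of Nog to the CA3 list was 0.0044 in cohort 1 alone, reversed in sign.

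Counts of the 8 genes called moved as follows, and the cause was not tested except where stated. Percentages in parentheses are the shares of all genes called in the same fit. A minimum mean of 5 FPKM removes Bmp4, Bmp6 and Bmp7 from the test. Then 0 were called in each comparison between groups that had a call (1.69% to 8.46%). At p under 0.01 the count was 0 in each (0.369% to 2.72%) except 14-7-2 against 14-7-0 (1.51%). With the choroid plexus score it was 0 in 14-14-0 (1.10%), 14-7-2 (3.54%) and home cage (0.877%) against sedentary. It was also 0 in 14-7-0 against 14-0-0 (2.05%). With the meningeal score it was 0 in 14-0-0 (5.27%), 14-14-0 (0.785%) and home cage (1.02%) and in 14-7-0 against 14-0-0 (3.49%). The endothelial score gave 0 in 14-0-0 (9.99%), 14-14-0 (2.33%), 14-7-2 (3.10%) and home cage (2.35%). The joint fit of 7 groups gave 0 for 14-7-2 (8.33%) and home cage (2.39%), and Cyber-T 0 for 14-7-2 (2.92%). Cohort 1 alone gave 0 for 14-7-2 (1.89%), 14-7-2 against 14-7-0 (4.17%) and 14-7-0 against 14-0-0 (3.65%), and 1 for home cage (1.501%). Cohort 2 alone gave 2 for 14-0-0 (4.70%) and 0 for 14-14-0 (2.04%), home cage (0.739%) and 14-7-0 against 14-0-0 (4.79%). Without the 23 libraries, 14-0-0 (5.74%), 14-14-0 (0.808%) and 14-7-0 against 14-0-0 (2.51%) had 0, and home cage (1.24%) had 1. In 14-7-2 against 14-7-0 (7.18%) 2 were called (Bmp4, and Id2 at -0.26, p = 0.0150).

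Leaving out 1 library gave 1 to 2 calls in 14-0-0 (8.79% to 10.3%), 1 to 3 in 14-14-0 (2.82% to 6.97%) and 0 in 14-7-2 (3.58%). It gave 0 to 3 in home cage (1.55% to 3.15%), 0 to 1 in 14-7-0 against 14-0-0 (4.46% to 5.85%) and 1 for the mean of the 5 exercise groups (4.85%). Related pairs among the genes fell from 21 to 10, and relations to marker lists from 57 to 14, in cohort 1 alone.

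Whether replicate numbers pair the libraries was not settled, because only same-numbered pairs were compared. Of 10 such pairs per comparison, 2 to 7 had correlated deviations over 0.1, with r from -0.398 to 0.704. A replicate block called 14.5% of all genes in 14-0-0 and 5.44% in 14-7-2 against 0-0-2, where fits without it called 9.15% and 2.43%. With the replicate block 2 genes were called in 14-7-0 against 14-0-0 (Bmp6, p = 0.00784, and Bmp7, -0.53, p = 0.0365), beside 6.92% of all genes. That block called 1 in home cage, beside 4.33% of all genes. Bmp4 in 14-14-0 gave p = 0.0453 with it, beside 7.04% of all genes called.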
